A study of Mus musculus with 2 samples.

Results

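The transcripts described here are 32 genes known for expression in endothelial cells, 28 of blood vessels and 4 of lymphatic vessels. They were chosen by name, with earlier results of these data known. Non-control probes on 2 mouse gene expression arrays were matched to them by RefSeq accession, and each gene was read from its brightest probe. The array named 20654 genes, of which 15254 were well above background on both arrays, meaning that the scanner software judged the spot clearly brighter than its surroundings. Of the 32 endothelial genes, 30 were well above background on both arrays. Calcrl was so with agonists only, and Prox1 in neither arm, so 31 genes met the rule of a measurable signal on at least 1 array.

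Endothelial cells line blood and lymph vessels, seal their contacts with VE-cadherin and claudin 5, and take their identity from transcription factors of the ETS and SOXF families. Lymphatic endothelium depends on PROX1, which SOX18 can induce, and bears the hyaluronan receptor LYVE1. In the ovary, vessels of the medulla and stroma send capillaries into the theca of growing follicles, while the granulosa layer stays free of vessels until ovulation.

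The study asked how tachykinin signalling, the signalling of substance P, neurokinin A and neurokinin B through their receptors TACR1, TACR2 and TACR3, affects follicles of the immature ovary. Pieces of ovary, each a half-portion, came from mice 2 weeks of age and were kept in organ culture, without a circulation, for 3 days. One RNA came from tissue given receptor agonists, which the study's methods list as [Sar9, Met(O2)11]-SP for TACR1, GR-64349 for TACR2 and a succinyl peptide analogue of substance P for TACR3. The other came from tissue given antagonists, listed as 1 compound for each receptor, among them GR-94800 for TACR2 and SB218795 for TACR3, with every ligand at 1 μM. The labels name the agents only as tachykinin receptor agonists or antagonists. The methods describe cutting each ovary lengthways into matching pieces so that differences between ovaries weigh less. Which pieces went to which arm, the number of ovaries behind each RNA and the strain used for the arrays were not given in the sources used here. No array of untreated ovary was analysed here, so each ratio compares the 2 arms and cannot say which of them moved.

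Each arm was hybridised to 1 single-colour array, so no difference below has a replicate check and no p-value was computed. Ratios are log2 of the normalised signal with agonists minus that with antagonists, after scaling each array to its 75th percentile, which was 672 signal units for agonists and 569 for antagonists. On this scale the median of all 15254 genes was -0.10. The error given with a ratio (±) is the scanner software's own estimate for the spots, about 0.20 on the log2 scale for bright genes, and does not include the spread between ovaries. Signals printed for single genes are the processed signals before scaling, in arbitrary units. Because whole tissue was measured, more endothelial cells and more RNA per endothelial cell cannot be told apart.

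RefSeq promoter windows of assembly GRCm38.p6 were held for 13 of the 32 genes, in 19 windows. The 250 bases before the transcription start are shown for 4 of them, the pair with the highest and the pair with the lowest ratio among the 8 measured genes with a single window, to let the upstream sequence of a lymphatic and a blood vessel gene be read side by side. Capitals mark GGAA or its complement TTCC, the core that ETS factors such as FLI1, ERG and ETS1 bind. The coordinates are those of the reference and not of the array, whose design used mm9.
Mmrn1, chr6:60944067-60944316, plus strand: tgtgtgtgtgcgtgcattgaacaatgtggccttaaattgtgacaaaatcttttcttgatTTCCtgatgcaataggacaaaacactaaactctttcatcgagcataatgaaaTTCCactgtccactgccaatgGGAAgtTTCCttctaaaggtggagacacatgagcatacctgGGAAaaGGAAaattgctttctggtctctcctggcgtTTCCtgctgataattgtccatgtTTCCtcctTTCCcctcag
Stab1, chr14:31168642-31168891, minus strand: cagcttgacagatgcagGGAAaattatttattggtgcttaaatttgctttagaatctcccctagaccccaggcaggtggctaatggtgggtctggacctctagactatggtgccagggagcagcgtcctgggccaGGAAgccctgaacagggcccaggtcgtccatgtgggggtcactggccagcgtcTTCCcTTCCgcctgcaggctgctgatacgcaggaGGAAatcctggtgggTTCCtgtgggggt
Cd34, chr1:194938571-194938820, plus strand: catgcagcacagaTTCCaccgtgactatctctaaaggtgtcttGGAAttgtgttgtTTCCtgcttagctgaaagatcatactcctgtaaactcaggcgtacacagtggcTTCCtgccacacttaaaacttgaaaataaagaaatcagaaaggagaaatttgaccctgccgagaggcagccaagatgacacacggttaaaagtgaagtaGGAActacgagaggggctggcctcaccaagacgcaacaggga
Eng, chr2:32646345-32646594, plus strand: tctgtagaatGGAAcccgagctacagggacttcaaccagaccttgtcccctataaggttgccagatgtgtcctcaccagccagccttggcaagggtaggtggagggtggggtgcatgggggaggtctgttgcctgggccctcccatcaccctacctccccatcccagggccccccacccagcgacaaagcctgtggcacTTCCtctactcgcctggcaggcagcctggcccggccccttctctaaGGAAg
These windows held 9, 6, 5 and 3 such cores in Mmrn1, Stab1, Cd34 and Eng. The core is too common to set a promoter apart: on either strand it was present in 93.4% of 32851 windows of the same length and in 17 of the 19 windows of the endothelial genes, with a median of 3 per window in both. The longer CCGGAA, which contains the core, was in 12% of all windows and in 0 of 19, and ACAAT, the core of SOX sites, was in 27.7% and in 6 of 19. These counts describe letters in the windows, and nothing about binding was read from them.

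All 30 measured genes gave a higher signal with agonists than with antagonists. Their ratios ran from 0.27 in Thbd to 2.49 in Vwf with a median of 0.97, which was 1.06 above the median of all genes. Ratios above 0 were found in 37.7% of all genes measured. At least 2-fold higher signal was seen for 13 of the 30 and at least 2-fold lower signal for 0, against 4.01% and 0.577% of all genes. At a threshold of 1.5-fold the count was 23, against 9.26% of all genes. By rank, 23 of the 30 were in the top 10% of all ratios. The 2-fold line ran through the middle of the genes, since 11 of them lay within 1 software error of it and 10 exceeded it by more than 1 error. Just inside were Tal1 at 2.02-fold and Cldn5 at 2.10-fold, and just outside were Esam and Icam2, both at 1.99-fold.

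**Figure D1:**
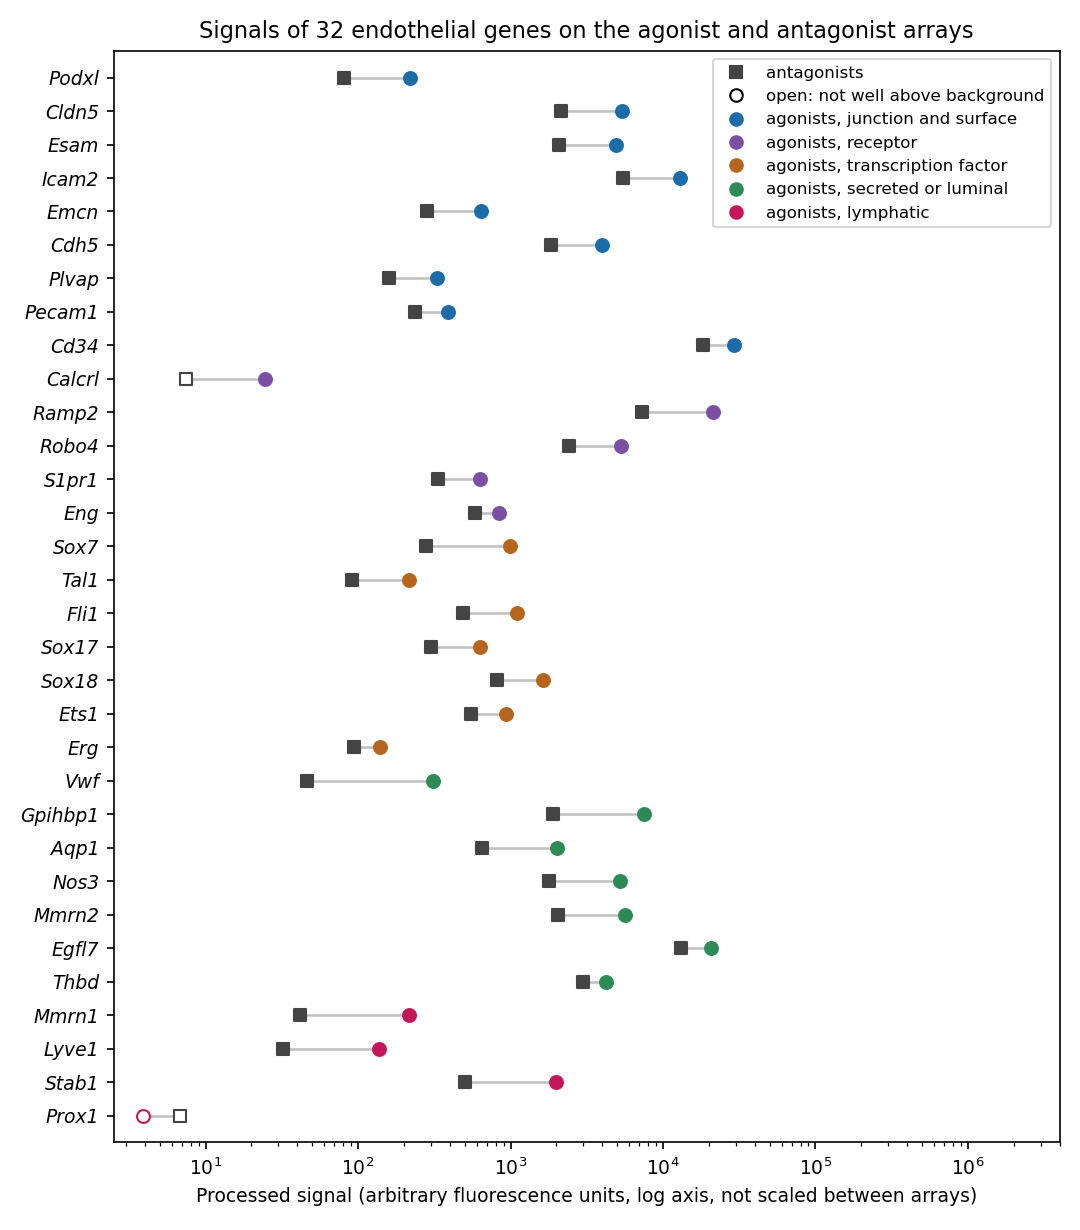
Processed signal (arbitrary units, log axis, not scaled between arrays) of the 32 endothelial genes, with 1 square for the antagonist array and 1 circle, coloured by role, for the agonist array; open symbols were not well above background. The circle lies to the right of the square for every gene except Prox1, whose symbols are both open.

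The proteins of endothelial junctions and surface gave a narrow set of ratios: 9 of 9 were above 0, from 0.44 to 1.19 with a median of 0.93, and 2 passed 2-fold. The share of all genes was 37.7% above 0 and 4.01% at least 2-fold higher. Podxl, the luminal sialomucin podocalyxin that mesothelium also makes, gave 218 units with agonists and 80.7 with antagonists, a log2 ratio of 1.19 ± 0.22. Cldn5, the claudin of endothelial tight junctions, gave 5346 and 2148 units, a log2 ratio of 1.07 ± 0.20. Esam (4896 and 2079.6 units) and Icam2 (12842 and 5464 units), adhesion molecules of endothelial contacts, both had a log2 ratio of 0.99 ± 0.20. These 4 surface genes thus differed from each other by no more than their combined software errors. Cdh5, which encodes VE-cadherin, the adherens junction protein that defines endothelium, gave 3981 units with agonists and 1835 with antagonists, a log2 ratio of 0.88 ± 0.20. Emcn, a sialomucin of capillaries and veins, gave 638 and 283 units and a log2 ratio of 0.93. Plvap, a component of the diaphragms of fenestrated capillaries, gave 330.4 and 160.0 units and a log2 ratio of 0.80. The lowest ratios of the group belonged to 2 genes that blood cells also express, although leukocytes also express Icam2, at 0.99. Pecam1, the CD31 of endothelium, leukocytes and platelets, read 388 and 395 units at its pair of agonist spots and 234 and 239 at the antagonist spots, a log2 ratio of 0.48 ± 0.15. Cd34, of endothelium and blood progenitors, gave 29396 and 18289 units, a log2 ratio of 0.44 ± 0.20.

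Receptors of vessel signalling were spread more widely. Ramp2, the partner that makes CALCRL a receptor for adrenomedullin, gave 21223 units with agonists and 7257 with antagonists, a log2 ratio of 1.31 ± 0.20. Ramp2 was the 1 of 4 measured receptors past 2-fold, against 4.01% of all genes. Its partner Calcrl was near the floor of detection: it gave 24.5 units with agonists and 7.41 with antagonists, where it was not well above background. Against the lowest signal that was well above background there, the Calcrl signal was at least 1.04-fold higher, a bound that allows almost no difference as well as a large one. Robo4, the roundabout receptor of endothelium, gave 5319.8 and 2411 units, a log2 ratio of 0.90 ± 0.20. S1pr1, the sphingosine 1-phosphate receptor that lymphocytes share, gave 627 and 332 units and a log2 ratio of 0.68 ± 0.21. Eng, the BMP and TGF-beta co-receptor endoglin, gave 845 and 589 units and a log2 ratio of 0.28 ± 0.20. Among the receptors the signal with agonists was thus between 1.21-fold (Eng) and 2.47-fold (Ramp2) that with antagonists.

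Transcription factors of endothelial identity were all above 0, from 0.32 to 1.59 with a median of 0.83. Past 2-fold were 2 of 7, against 4.01% of all genes. The SOXF family differed within itself. Sox7 gave 995 units with agonists and 279 with antagonists, a log2 ratio of 1.59 ± 0.21. Sox17, the arterial member, gave 635 and 303 units and a log2 ratio of 0.83 ± 0.21, and Sox18, the member that induces Prox1, gave 1643 and 814 units and 0.77 ± 0.20. The Sox7 ratio thus lay above those of Sox17 and Sox18 by more than the errors of both spots combined. Tal1, a basic helix-loop-helix factor of blood and endothelial progenitors, gave 217 and 90.7 units, a log2 ratio of 1.01 ± 0.22. Of the ETS family, Fli1, which blood cells also express, gave 1106 and 486 units and a log2 ratio of 0.95 ± 0.20. Ets1 gave 927 and 552 units and 0.51 ± 0.20, and Erg gave 139 and 94.2 units and 0.32 ± 0.22. Read from their brightest probes, the ETS factors thus differed among themselves as the SOXF factors did. Erg was then the transcription factor closest to equal signal on both arrays. This depended on the probe for Ets1, whose other probe, at 775 and 372 units, gave 0.82. The other Erg probe was well above background with agonists only.

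Secreted, luminal and enzymatic products of endothelium included Vwf and Gpihbp1, the blood vessel genes with the highest ratios. The median of the group was 1.32, and 5 of 7 passed 2-fold, against 4.01% of all genes. Vwf, which encodes von Willebrand factor, stored by endothelial cells and megakaryocytes, gave 309 units with agonists and 46.3 with antagonists, a log2 ratio of 2.49 ± 0.25. It was 5.63-fold higher and stood at rank 39 of the 15254 genes. Gpihbp1, which anchors lipoprotein lipase on capillaries, gave 7509.5 and 1901 units, a log2 ratio of 1.74 ± 0.20. Aqp1, the water channel of capillaries, red cells and mesothelium, gave 2009 and 652 units and a log2 ratio of 1.38 ± 0.20. Nos3, the endothelial nitric oxide synthase, gave 5258 and 1779 units and 1.32 ± 0.20, and Mmrn2, an endothelial matrix protein, gave 5605 and 2049.95 units and 1.21 ± 0.20. The remaining genes of the group lay at the low end of the endothelial ratios. Egfl7, a secreted regulator of sprouting, gave 20566 and 13074 units and 0.41 ± 0.20. Thbd, the anticoagulant thrombomodulin, which mesothelium and monocytes share, gave 4257 and 2991 units, the lowest ratio of the 30 genes at 0.27 ± 0.20.

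The lymphatic genes that could be measured had ratios near the top of the range, 1.74 to 2.12 with a median of 1.84, and 3 of 3 passed 2-fold. Among all genes 4.01% were at least 2-fold higher, and 6.78% in the dimmest of 3 bands of signal, where Lyve1 and Mmrn1 lay. Mmrn1, multimerin 1 of lymphatic endothelium and platelets, gave 215 units with agonists and 41.8 with antagonists, a log2 ratio of 2.12 ± 0.26. Lyve1, the hyaluronan receptor of lymphatic endothelium and some macrophages, gave 137 and 32.3 units, a log2 ratio of 1.84 ± 0.28. Stab1, a scavenger receptor of sinusoidal and lymphatic endothelium and macrophages, gave 1974 and 501 units, a log2 ratio of 1.74 ± 0.20. Prox1, the factor that defines lymphatic identity, read 3.90 and 6.77 units and was well above background on neither array, so it has no ratio. The label of the group as lymphatic therefore rests on genes that macrophages or platelets also express, without its defining factor. Of the 27 measured blood vessel genes, Vwf and Gpihbp1 had a ratio above that of Stab1, and Vwf alone exceeded Mmrn1. The blood vessel median was 0.93, but with 3 lymphatic genes on 1 array per arm the difference from blood vessel genes was not tested.

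Background correction bore most on these dim genes. With normexp correction, which fits the background and then adds a constant of 50 units, more than the antagonist signals of Lyve1, Mmrn1 and Vwf themselves and so drawing their ratios towards 0, the Lyve1 log2 ratio was 0.79, that of Mmrn1 1.11 and that of Vwf 1.35, while that of Stab1 was 1.55. The lymphatic ratios then ran from 0.79 to 1.55, across much of the range of the blood vessel genes. Lyve1, Podxl at 0.70 and Tal1 at 0.59 were then below 2-fold. All 30 ratios stayed above 0 in every setting tried, the lowest being 0.07 for Erg with normexp.

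**Figure D2:**
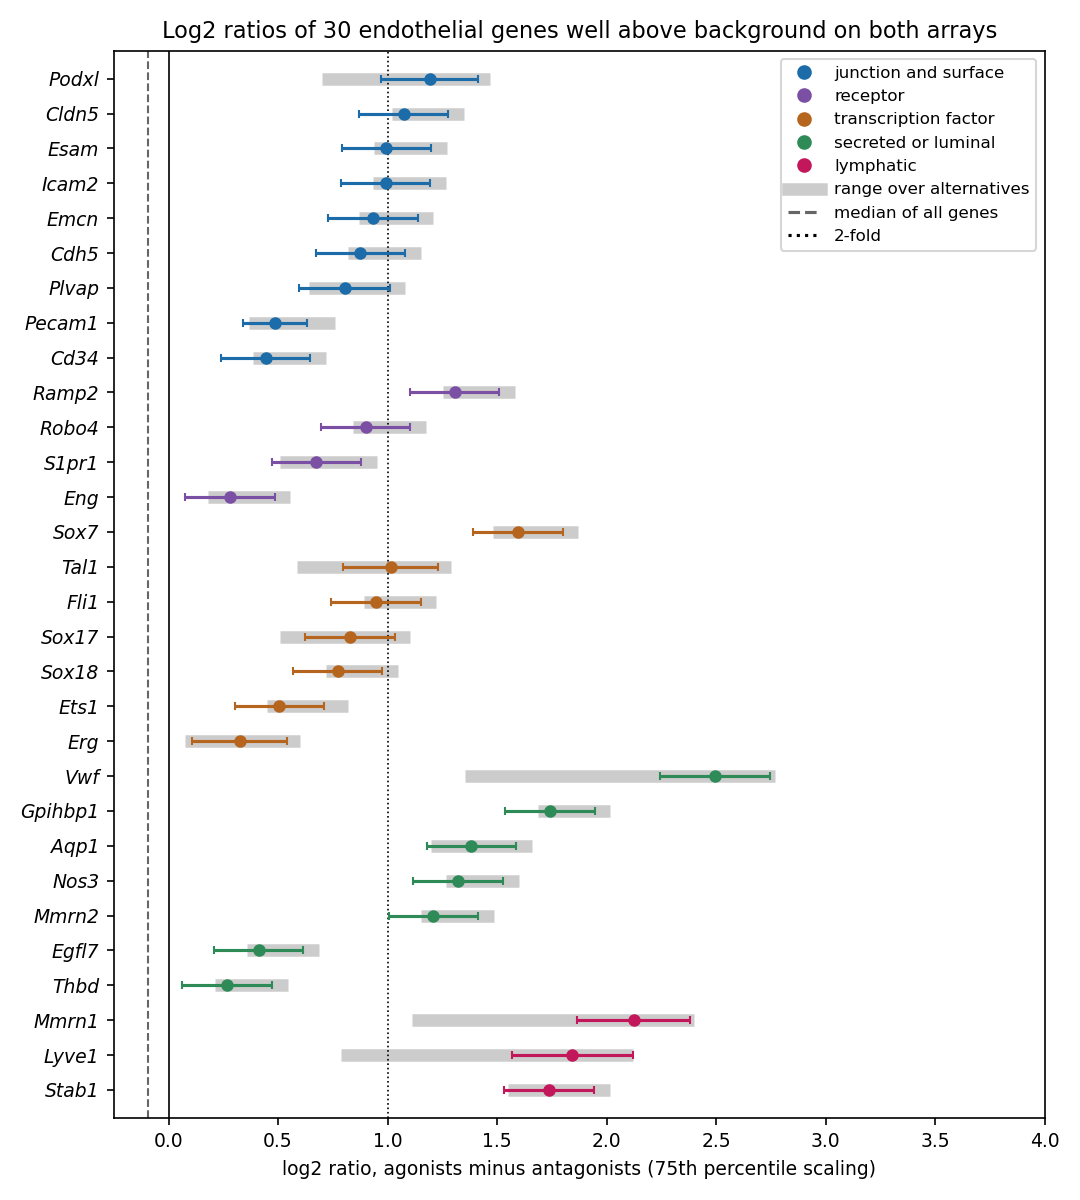
Log2 ratio of agonists to antagonists for the 30 genes well above background on both arrays, coloured by role, with the scanner software's error as bars, the range over all settings tried in grey, a dotted line at 2-fold and a dashed line at the median of all genes. All points lie above 0, from Thbd at 0.27 to Vwf at 2.49, and the 3 lymphatic genes lie at 1.74, 1.84 and 2.12.

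Genes with more than 1 probe, or a probe spotted more than once, allowed a look at technical agreement within an array. Nos3 had a second probe spotted 10 times, which read from 881 to 961 units with agonists (median 922) and from 257 to 300 with antagonists (median 288). The 10 spot ratios ran from 1.38 to 1.60 with an SD of 0.07, and the ranges of the signals did not overlap. This spread covers the array surface only. For 284 such probes over all genes the median SD was 0.07. Second probes gave log2 ratios of 0.49 for Cd34 (0.44 for the brighter probe), 0.90 for Plvap (0.80), 1.45 for Nos3 (1.32), 0.82 for Ets1 (0.51) and 0.51 for Sox17 (0.83). The probes of each of these genes thus gave the same sign and differed by at most 0.32. The second Erg probe gave 25.9 units with agonists and 4.64 with antagonists and was well above background with agonists only. Its log2 ratio of 2.24, against 0.32 for the brighter probe, thus rests on signals near the floor.

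Signal brightness was compared with the ratio because dim spots give larger ratios. Over all genes, the Spearman correlation of ratio with mean signal was -0.20, and over the 30 endothelial genes it was -0.18, both across genes that share the same arrays. All genes were split by mean signal into 3 bands of equal size. In the dim band 6.78% of all genes were at least 2-fold higher with agonists, as were 5 of 8 endothelial genes there. In the middle band the background was 3.91%, with 3 of 10 endothelial genes. In the bright band it was 1.34%, with 5 of 12. The endothelial medians were 1.103, 0.88 and 0.99 in the dim, middle and bright bands, where all genes had medians of 0.01, -0.10 and -0.16. The endothelial median was thus above that of all genes of like brightness in each band.

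**Figure D3:**
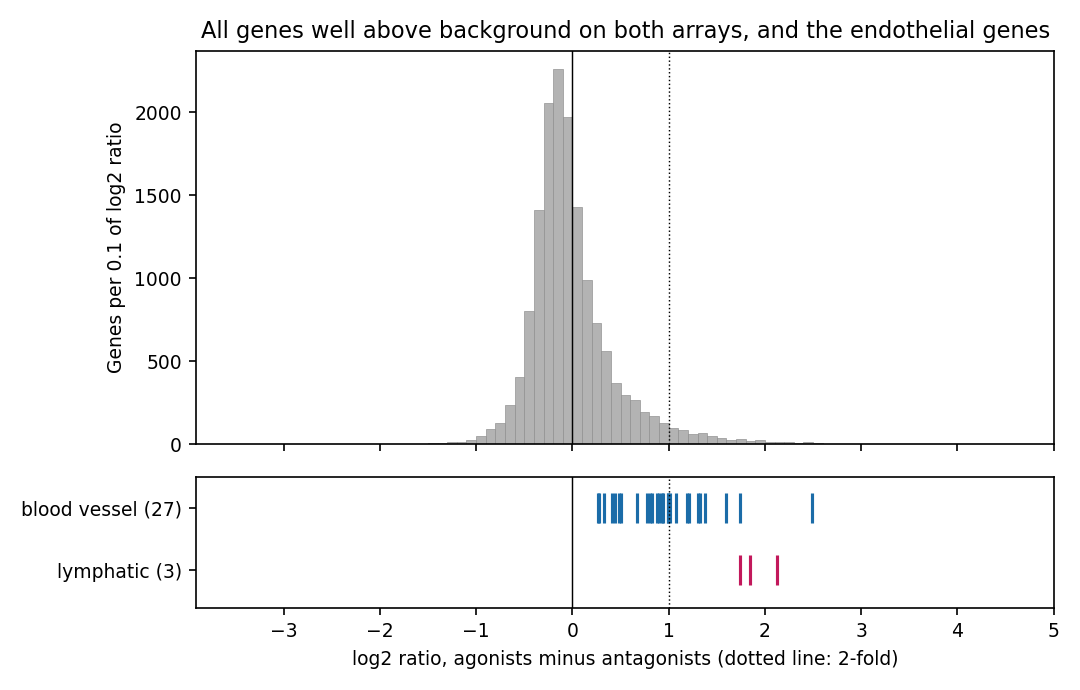
Distribution of the log2 ratio of agonists to antagonists over the 15254 genes measured on both arrays, each of the 30 endothelial genes having a mark of its own. The bulk of genes centres on -0.10, and the endothelial marks lie from 0.27 to 2.49.

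A second list of 29 genes known for blood endothelium gave a like picture with more spread. Like the members, it was chosen with earlier results of these data known, so the likeness is not independent support. Of the 28 measured on both arrays, 24 were above 0 and 4 below, against 37.7% of all genes above 0. At least 2-fold higher were 14, against 4.01% of all genes, and the median was 0.997. The highest was Ctla2a, a cysteine protease inhibitor of endothelium, at 18484 and 2650.2 units and a log2 ratio of 2.56, although its near copy Ctla2b may share the probe. Gja5, the connexin of arterial endothelium, gave 429 and 72.0 units and a log2 ratio of 2.33, and Ecscr, a surface protein of endothelium, gave 1.77. The lowest were Apold1, an immediate early gene of endothelium, at -0.36, and Kdr, the VEGF receptor, at -0.27. The 2 Kdr probes disagreed in sign, the dimmer one giving 0.38. The other 2 genes below 0, named after their values were seen, were Mcam at -0.17, whose other probe gave 0.83, and Arhgef15 at -0.10. With spike-in scaling Kdr was at 0.004, Mcam at 0.11 and Arhgef15 at 0.18, so that of the 28 genes, each read from its brightest probe, Apold1 alone was below 0 in every scaling and with normexp. Tek, the angiopoietin receptor, was well above background with agonists only (96.5 units, against 18.9), at least 4.10-fold higher, and is named after its value was seen. A higher signal with agonists therefore did not extend to every endothelial gene.

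A further list of lymphatic genes gave lower ratios than Lyve1, Mmrn1 and Stab1, a difference that was not tested. Of 8 genes, 4 could be measured in both arms, and their median was 0.13. Of these 4, 0 were at least 2-fold higher, against 4.01% of all genes. Foxc2, a factor of lymphatic valves, gave 0.50 from dim signals (65.3 and 39.0 units), or 0.15 with normexp correction. Itga9, an integrin chain of those valves, gave 0.24. Pdpn, podoplanin, gave 0.02, which turned to -0.04 when the arrays were scaled on their medians, and its other probe gave -0.22. Nrp2, the co-receptor for VEGF-C, gave -0.43, or -0.04 with its other probe. Flt4, the VEGF-C receptor, named after its value was seen, gave 55.0 units with agonists and 7.42 with antagonists, where it was not well above background, and was at least 2.34-fold higher. Several of these genes are also expressed outside lymphatic vessels, and Reln and Sema3d were well above background on neither array.

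Markers of other cells in the ovary were read beside the endothelial genes. For comparison, 37.7% of all genes measured lay above 0, 4.01% passed 2-fold upward and 0.577% passed it downward. Pericytes, the mural cells of capillaries, had 8 of 8 genes above 0 with a median of 0.86 and 3 at least 2-fold higher, Abcc9 at 1.52, Higd1b at 1.29 and Rgs5 at 1.27. The lowest were Notch3 at 0.33 and Pdgfrb at 0.38. Surface epithelium, the mesothelium that covers the ovary, had 8 of 8 measured genes above 0 with a median of 1.09 and 5 at least 2-fold higher. Its genes ran from Wt1 at 0.23 and Upk3b at 0.62 to Upk1b at 1.32, Krt19 at 1.40 and Lrrn4 at 1.79. Its summed signal was 45184 units with agonists and 24812 with antagonists, of which Wt1 alone gave 21407 and 15468. Lrrn4 (90.1 and 22.1 units) and Upk1b (121 and 41.9 units) were dim. With normexp correction they gave 0.45 and 0.52, and the median of the list was 0.71, against 0.85 for the blood vessel genes. Higher signals with agonists were thus also seen in markers of cells other than endothelium, and their part in the values of Podxl, Aqp1 and Thbd, which mesothelium shares, was not tested. Granulosa genes had a median of -0.67 over 7 genes, 1 of them at least 2-fold lower, from Inhbb, an inhibin subunit, at -1.17 and Fshr, the FSH receptor, at -0.73 to Foxl2 at 0.32, with its other probe at -0.37, and Amhr2 at 0.38. Oocyte genes had a median of 0.11 over 8 genes, from -0.13 to 0.59, and 3 of the 8 changed sign under some setting.

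Of the 32 endothelial genes, 16 were marked here as also expressed by blood cells or surface epithelium, a marking that may not be complete. Leukocyte genes had 9 of 10 measured members above 0 and 4 at least 2-fold higher, against 37.7% and 4.01% of all genes. Their median was 0.62, with a summed signal of 18534 units with agonists and 13896 with antagonists. F13a1, coagulation factor XIII A of resident macrophages, gave 647 and 25.4 units and a log2 ratio of 4.43, the highest of all 15254 genes. However, its antagonist signal was near the lowest one well above background there, 19.9 units. With normexp correction the F13a1 ratio was 2.76, and its other probe was well above background on neither array. The macrophage mannose receptor Mrc1 gave 1.82 and Adgre1, a surface receptor of macrophages, 1.42, or 0.72 with its other probe. Csf1r, the receptor that macrophages depend on, gave 0.15, with its other probes at -0.09 and 0.04, and Itgam -0.31, with its other probes at 0.64 and -0.39. Macrophage genes thus included both very high ratios and ratios near 0, and their part in the values of Lyve1 and Stab1 was not tested. Platelet genes were measured for 4 of 7, with Treml1 at 1.34, Pf4 at 1.15, Itgb3 at 0.24 and Gp1bb at -0.29. Treml1 was dim (162 and 53.9 units) and gave 0.71 with normexp correction. Gp1bb was dimmer still (35.8 and 37.0 units), and its other probes were well above background on neither array. The platelet integrin gene Itga2b, Gp9 and Ppbp were well above background on neither array, and the part of platelets in Vwf and Mmrn1 was not tested. Erythrocyte genes were measured for 3 of 8, from -0.15 to 0.25, and each changed sign under some setting. The 16 shared genes had a median of 0.97 with 7 at least 2-fold higher, against 4.01% of all genes. Of the 16 not so marked, 14 were measured, with a median of 0.96 and 6 at least 2-fold higher. The 14 genes were all of blood vessels, since Lyve1, Mmrn1 and Stab1 are all among the shared genes.

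Adipocyte genes were read because fat lies beside the ovary. Adipoq and Lep, which define adipocytes, were well above background on neither array. Fabp4, which capillary endothelium and macrophages express as well as fat, gave 739 and 44.2 units and a log2 ratio of 3.82, while Plin1 gave 0.59 and Retn -0.79.

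**Figure D4:**
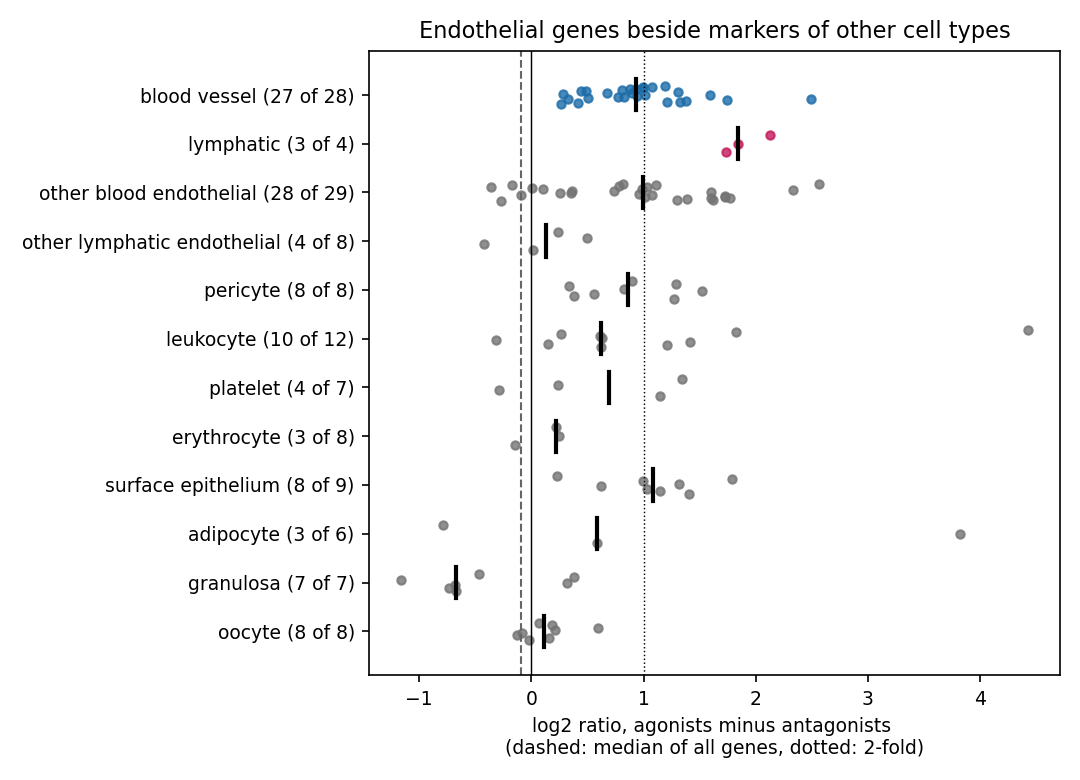
Log2 ratio of agonists to antagonists for each gene well above background on both arrays, by gene list, with the median of each list as a short black line, the median of all genes dashed and 2-fold dotted. The blood vessel medians lie at 0.93 and 0.997, the lymphatic ones at 1.84 and 0.13, those of pericytes and surface epithelium at 0.86 and 1.09, and that of granulosa genes at -0.67.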

How the data were processed

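Total RNA of 2 cultured ovary samples, 1 per arm, was hybridised to single-colour arrays by the authors. The deposited intensity values are processed signals of Agilent Feature Extraction 10.10.1.1, which subtracts background. The array design used mm9. The authors' table of values equals these signals times a constant per array (1.99 for agonists, 2.19 for antagonists) and served as an alternative. Control spots and spots marked as outliers were left out, spots of a probe were averaged, and log2 of the signal minus each array's 75th percentile was taken. A gene was read from its brightest probe. It was counted where well above background on both arrays at more than 50% of its spots. Of 55674 probes, 27224 were named, through RefSeq transcripts of the GRCm38.p6 table. With 1 array per arm no test was run, and the number of arrays limits the precision. Fold bounds set a dim signal at the lowest signal well above background on that array (18.1 units for agonists, 19.9 for antagonists). Alternative scalings, background correction, probe rules and filters are given at the end, and the steps were tested on simulated data. Named genes were the 32 members and, of each other list, up to 3 with the highest and up to 2 with the lowest ratio. Members and lists were chosen with earlier results of these data known. Python 3.11.15, numpy 2.4.6, pandas 2.3.3 and limma 3.58.1 in R 4.3.3 were used.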

Additional observations from a re-analysis of the deposited data

How the results depend on the processing

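Every one of the 30 measured genes kept a ratio above 0 in all alternatives that were run. Of 420 single gene values under alternatives, 355 moved by less than the software error and 65 by more, 58 of them upward. Scaling accounts for most of this by its construction: without scaling the median of all genes was 0.15, with spike-in controls it was 0.18, against -0.10. Without scaling 22 genes were at least 2-fold higher (6.5% of all genes), the median of the endothelial genes was 1.21, of blood vessel genes 1.18 and of lymphatic genes 2.08. With spike-in scaling these were 22 (6.91% of all genes), 1.24, 1.21 and 2.12. With normexp correction, whose added constant draws dim ratios towards 0, 11 genes were at least 2-fold higher (2.11% of all genes) and the lymphatic median was 1.11. Among brighter genes, whose mean signal reached the 75th percentile, 7 of 18 were at least 2-fold higher (2.09% of all genes so filtered), without genes shared with blood cells or surface epithelium 6 of 14 (3.97% of all genes), both with fewer genes counted, and 23 of 30 were at least 1.5-fold higher. With no filter on dim probes 1 gene, Prox1, was at least 2-fold lower, from signals not well above background. Without the shared genes no lymphatic gene was left on both arrays, so that median was not computed. No paired analysis was possible because each arm had 1 array. The 1 array per arm and dim signals, as for Calcrl and Prox1, limit what can be read.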

Other observations

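The other genes of the second blood endothelial list that were measured on both arrays, given in full as values, had log2 ratios from 0.01 to 1.73. The highest were Adgrl4, an adhesion receptor, and Ptprb, a receptor phosphatase that restrains TEK, both at 1.73, with the other Ptprb probe at 1.5. Tie1, the partner of TEK, gave 1.62, Cd93, a surface glycoprotein, 1.61, and Notch4, an endothelial Notch receptor, 1.60. Clec14a, a surface lectin, gave 1.39, Flt1, a VEGF receptor, 1.30, Tm4sf1, a membrane protein, 1.11, Rasip1, an effector of small GTPases, 1.08, Lmo2, a partner of TAL1, 1.03, and Adgrf5, an adhesion receptor, 1.01. The genes from Adgrl4 to Adgrf5 were the ones past 2-fold. With normexp correction Adgrl4 (166 and 42.4 units) gave 0.86 and Clec14a (251 and 81.0 units) 0.87, below 2-fold. Lmo2 at 0.95 and Adgrf5 at 0.94 were then below 2-fold as well.

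Below 2-fold, Efnb2, the ephrin B2 ligand, gave 0.98, She, an adaptor protein, 0.96, Cav1, the coat protein of caveolae, 0.82, and Dll4, a Notch ligand, 0.73. Elk3, an ETS factor, gave 0.78, with its other probes at 0.40 and 0.05. Gja4, a connexin of vessels and of the oocyte surface, and Bcl6b, a zinc finger factor, both gave 0.36. Myct1 gave 0.26, with its other probe at 0.42, and Ephb4, the receptor for ephrin B2, 0.10, with its other probe at 0.17. Nr2f2, which ovarian stroma also expresses, gave 0.01, or -0.05 when the arrays were scaled on their medians.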
